A study of Mus musculus with 35 samples.

Results

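Tumor-cell expression of vascular growth factors was examined through 10 genes: *Ccbe1*, *Vegfc*, *Adamts3*, *Vegfa*, *Vegfb*, *Pgf*, *Angpt1*, *Angpt2*, *Angptl2* and *Angptl4*. All 10 were found by symbol, each with 1 identifier, among the 53465 genes of the count table, and each was read in all 35 RNA-seq libraries. The set was chosen by name with earlier results of these libraries known, and *Ccbe1* was selected on its measured fold change between the libraries labelled Smad4 on and *Smad4* off, so its values in that contrast are given as a description, with no test. The libraries were made from mKate2+ tumor cells sorted by flow cytometry from 3 sites in nude mice and labelled as day 7 or day 14.

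The injected KC-shSmad4 cells came from primary pancreatic ductal adenocarcinomas (PDACs) of mice with Ptf1a-Cre, a Rosa26 allele for rtTA3 and mKate2, and, targeted to *Col1a1*, a hairpin against *Smad4* that doxycycline (Dox) switches on together with GFP. The cells also carried firefly luciferase. Cre was driven in pancreatic cells, and how many of the tumor-derived lines stood behind these libraries was not stated. The hosts were athymic Foxn1nu females 6 to 8 weeks old, which lack a thymus and mature T cells but keep other immune cells and vessels. Cells were placed in the pancreas, in the spleen to reach the liver (the spleen was then removed) or in the tail vein to reach the lungs. All hosts ate Dox chow first, and withdrawal, for the groups labelled on, came 4, 5 and 6 weeks after injection for pancreas, liver and lungs, so organ, route and time since injection cannot be told apart. On day 7 the groups held 3 libraries labelled off and 2 labelled on for the pancreas, 2 and 3 for the liver and 4 and 2 for the lungs. On day 14 they held 2 and 3, 3 and 3, and 4 and 4.

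CCBE1 is a secreted matrix protein that, together with the protease ADAMTS3, helps to cleave pro-VEGF-C into its active form. Active VEGF-C, the product of *Vegfc*, acts through VEGFR3 and is the main growth factor of lymphatic vessels. VEGF-A drives sprouting of blood vessels through VEGFR2, while VEGF-B and placental growth factor (*Pgf*) bind VEGFR1. Angiopoietin 1 (*Angpt1*) is an activating ligand of the receptor Tie2 that stabilizes vessels, and angiopoietin 2 (*Angpt2*) is its context-dependent antagonist. The angiopoietin-like proteins do not bind Tie2: ANGPTL2 is a secreted inflammatory and proangiogenic factor, and ANGPTL4 inhibits lipoprotein lipase and is a target of PPARs and of hypoxia.

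Library totals were 11885461 to 43571007 counts (median 19415320), and 3 counts, taken as the floor, equalled 0.0684 to 0.239 CPM (counts scaled to library size by trimmed mean of M values). *Smad4* mRNA went against the labels in every library: it stood at 69.9 to 143 CPM in the 18 libraries labelled off and at 14.8 to 22.4 CPM in the 17 labelled on. Every fold change below is labelled on against labelled off, and a direction drawn from it is a direction between labels. Keratins of the ductal tumor cells were high in all libraries, with *Krt8* at 543 to 6363 CPM. Markers of other cells were also found, with the 10 fibroblast markers summing to 9148 to 25173 CPM in the pancreas and 158 to 1966 CPM in the lungs. The 1 liver library labelled paired-end (day 7, labelled off, replicate 2) stood apart: its fibroblast markers summed to 36042 CPM against 253 to 4310 CPM in the other 10 liver libraries, its 6 acinar markers to 313 against 4.88 to 16.9 CPM, and its median correlation was higher with the pancreas libraries (r = 0.964) than with the liver libraries (r = 0.905). In sorted but bulk RNA, fewer cells of a type and less RNA per cell cannot be told apart.

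For 6 of the 10 genes RefSeq promoter sequences on GRCm38.p6 were at hand. The 250 bases before the annotated start are shown for the 3 growth factor genes that fell with the label (*Vegfc*, *Pgf* and *Angptl2*) and for *Vegfa*, the most abundant of the 10. They lie at chr8:54077282-54077531 (*Vegfc*, plus strand), chr12:85177314-85177563 (*Pgf*, minus strand), chr2:33215711-33215960 (*Angptl2*, plus strand) and chr17:46032378-46032627 (*Vegfa*, minus strand), written 5′ to 3′ on the gene's strand. Capitals mark matches to CAGAC, the SMAD half-site, or to the hypoxia-factor core GCGTG, on either strand (reverse complements GTCTG and CACGC).
Vegfc: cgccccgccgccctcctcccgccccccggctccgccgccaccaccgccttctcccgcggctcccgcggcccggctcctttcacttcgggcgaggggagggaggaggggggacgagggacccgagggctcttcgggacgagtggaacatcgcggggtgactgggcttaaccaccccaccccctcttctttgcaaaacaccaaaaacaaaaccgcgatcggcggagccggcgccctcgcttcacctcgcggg
Pgf: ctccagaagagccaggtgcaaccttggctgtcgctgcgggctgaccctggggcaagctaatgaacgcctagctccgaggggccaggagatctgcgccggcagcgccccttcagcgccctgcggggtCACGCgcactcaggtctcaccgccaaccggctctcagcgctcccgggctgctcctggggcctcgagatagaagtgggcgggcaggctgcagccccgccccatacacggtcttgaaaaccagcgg
Angptl2: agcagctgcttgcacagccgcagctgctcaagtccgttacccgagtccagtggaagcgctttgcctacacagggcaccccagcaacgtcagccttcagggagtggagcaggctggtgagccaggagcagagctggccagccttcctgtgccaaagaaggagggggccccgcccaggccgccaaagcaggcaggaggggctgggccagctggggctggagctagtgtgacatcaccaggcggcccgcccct
Vegfa: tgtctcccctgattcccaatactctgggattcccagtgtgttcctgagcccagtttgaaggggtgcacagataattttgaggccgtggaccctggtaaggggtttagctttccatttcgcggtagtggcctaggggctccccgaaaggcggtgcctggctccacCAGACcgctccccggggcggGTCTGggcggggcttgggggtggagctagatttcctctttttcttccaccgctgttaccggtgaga
The *Vegfa* stretch held 2 CAGAC matches, starting at -86 and -66 from the start site, and the *Pgf* stretch held 1 GCGTG match at -124. The *Vegfc* and *Angptl2* stretches held no match to these letters or to ACGTG, GTCTAGAC or TGANTCA, the AP-1 site. Of 32851 mouse promoter stretches of the same length, 42.2% held CAGAC, 28.2% GCGTG, 16.6% ACGTG, 6.75% TGANTCA and 0.167% GTCTAGAC, so the shorter motifs are common, and a match is a description of the letters only. The 6 genes had 8 annotated starts in all. The second start of *Pgf* held a CAGAC match at -186, and that of *Vegfa* held CAGAC at -102, ACGTG at -211 and GCGTG at -218.

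The 10 genes covered a wide range of levels. Per kilobase of exon, the median over 35 libraries was highest for *Vegfa* (77.5 CPM per kb), followed by *Angptl4* (23.9), *Angptl2* (21.4), *Vegfb* (17.4) and *Vegfc* (13.3). *Pgf* (1.85), *Ccbe1* (1.25), *Angpt2* (0.472) and *Angpt1* (0.153) were lower on the same scale, and *Adamts3* was at 0.0141 CPM per kb. This order is of medians over all organs and differed by organ: in the pancreas on day 7 labelled off, mean *Angpt1* (2.52 CPM per kb) was above mean *Pgf* (2.24), *Ccbe1* (2.08) and *Angpt2* (0.891). The VEGF-C pathway was thus measured with its ligand well above its cofactor and its protease at the edge of detection. The edgeR quasi-likelihood test was applied over all genes in each of 6 label comparisons, and calls required more than a 2-fold difference and a Benjamini-Hochberg adjusted p under 0.05. In these, 5 of 46 gene-by-comparison tests of the members other than *Ccbe1* were called, 4 lower and 1 higher, in libraries labelled on. Of all genes tested, the share with a call was 1.33% for pancreas libraries of day 7 (0.956% higher), 4.64% for those of day 14, 0.444% for liver libraries of day 7 (0.181% higher) and 0.0271% for lung libraries of day 14 (0.0203% higher and 0.00678% lower). No gene was called by edgeR in the lungs on day 7 or the liver on day 14 (0.0%), where 793 and 1447 genes had an unadjusted p under 0.05 and DESeq2 called 0.658% and 2.22%. The labelled groups did not overlap for 40.0% (pancreas), 44.4% (liver) and 12.3% (lung) of 17547 genes on day 7, and for 42.1%, 14.2% and 5.35% on day 14, so a lack of overlap is common in the small groups.

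**Figure D1:**
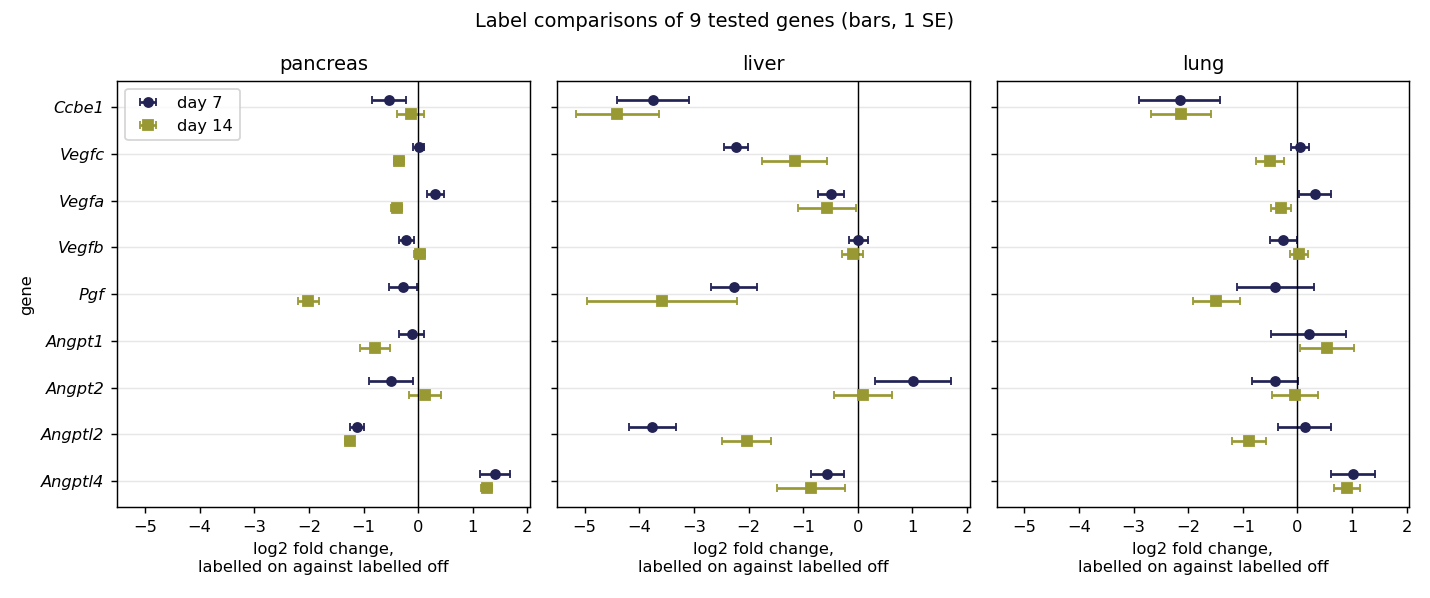
Log2 fold change of 9 genes between libraries labelled on and labelled off (x axis), by gene (y axis), with 1 panel per organ, circles for day 7 and squares for day 14, and bars of 1 SE. *Ccbe1* lies farthest from 0 in the liver, at -3.75 and -4.41, *Vegfb* stays within 0.26 of 0 in all panels, and *Adamts3* is left out because it passed the count filter in no comparison.

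*Ccbe1* (ENSMUSG00000046318, GRCm38 chromosome 18, 66045302 to 66302739, minus strand), the cofactor of VEGF-C cleavage, was at 0.692 to 63.8 CPM. In the liver on day 7 it stood at 30.3 and 16.1 CPM in the libraries labelled off and at 2.74, 2.02 and 0.692 CPM in those labelled on. On day 14 it stood at 63.8, 15.2 and 11.6 CPM in the liver libraries labelled off and at 1.71, 1.36 and 1.39 CPM in those labelled on. The labelled groups did not overlap in the liver on either day, and on day 14 the highest library labelled off stood well above the other 2 of its group. The fold changes were -3.75 ± 0.66 (log2, SE) on day 7 and -4.41 ± 0.76 on day 14.

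In the lungs on day 7, *Ccbe1* was at 19.3, 28.0, 11.9 and 6.08 CPM in the libraries labelled off and at 5.73 and 1.55 CPM in those labelled on. On day 14 the values were 16.8, 24.1, 19.0 and 19.0 CPM against 7.60, 2.81, 0.835 and 6.77 CPM. The groups were again apart, by a narrow margin on day 7, with fold changes of -2.16 ± 0.75 and -2.13 ± 0.55. In the pancreas the labelled groups overlapped on both days: 28.2, 14.1 and 25.4 CPM against 14.0 and 16.7 CPM on day 7, and 14.5 and 13.5 CPM against 8.64, 16.1 and 12.8 CPM on day 14. The fold changes there were -0.54 ± 0.31 and -0.14 ± 0.24.

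The 12 groups ordered by mean *Ccbe1* level fell into an upper run of 8 and a lower run of 4. The upper run held all 6 groups labelled off and both pancreas groups labelled on, from 30.2 ± 29.2 CPM (SD, n = 3, liver day 14 off) to 12.5 ± 3.76 CPM (n = 3, pancreas day 14 on). The lower run held the lung and liver groups labelled on, from 4.51 ± 3.22 CPM (n = 4, lung day 14) to 1.49 ± 0.19 CPM (n = 3, liver day 14). Within each run, neighbours differed by less than the larger SD, and only the step from pancreas day 14 on to lung day 14 on exceeded it. All of these groups are the ones whose contrast put the gene forward, so the order is a description.

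Between organs, over the mean of both days, *Ccbe1* among the libraries labelled off differed by 0.58 ± 0.50 (log2, SE) for liver against pancreas, 0.01 ± 0.45 for lung against pancreas and 0.56 ± 0.44 for liver against lung, about the size of the errors. Among those labelled on the same differences were -3.07 ± 0.51, -1.78 ± 0.51 and -1.28 ± 0.49. These levels belong to the contrast on which the gene was selected, so no test is given for them either.

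**Figure D2:**
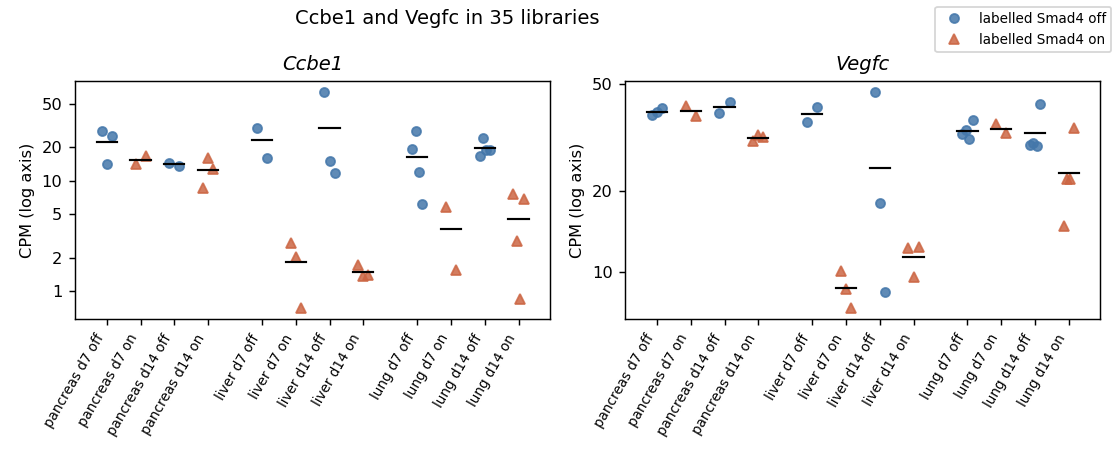
*Ccbe1* and *Vegfc* in each of 35 libraries (y axis, CPM, log scale) by organ, day and label (x axis), with circles for libraries labelled off, triangles for labelled on and bars at group means. *Ccbe1* is low in liver and lung libraries labelled on, whereas *Vegfc* is low in liver libraries labelled on and in 2 of 3 liver libraries of day 14 labelled off (18.1 and 8.42 CPM).

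*Vegfc* (ENSMUSG00000031520, chromosome 8, 54077606 to 54187096, plus strand), the lymphangiogenic ligand, fell with the label in the liver on day 7. It was at 36.3 and 41.3 CPM in the 2 libraries labelled off and at 10.1, 8.69 and 7.34 CPM in the 3 labelled on. The groups did not overlap, and *Vegfc* was 4.69-fold lower in those labelled on (-2.23 ± 0.23, log2 and SE, edgeR adjusted p = 0.0477), in a comparison where 0.262% of 16007 genes were called lower. The call was lost without any 1 of the 3 libraries labelled on (adjusted p = 0.131 to 0.242, fold changes -2.35 to -2.12) and kept without either library labelled off, the paired-end one included. No marker of another cell type was called by edgeR in this comparison, but sums of several lists lay apart between the labels. The 7 hepatocyte markers summed to 81.1 and 256 CPM labelled off and to 1017 to 1047 CPM labelled on (0 of 6 tested called, 5 with an unadjusted p under 0.05), the 8 leukocyte markers to 66.7 and 129 against 252 to 277 CPM (0 of 8, 5), and the 7 ductal tumor cell markers to 3812 and 12312 against 16009 to 17692 CPM (0 of 7, 3). The 6 lung epithelial markers summed to 9.91 and 35.2 against 149 to 325 CPM (0 of 2, 1), with 3 of the 6 above 3 counts labelled on. Single genes weighed heavily in these lists. Over all 35 libraries *Apob* held 272729 counts beside 2319 for *Alb*, which reached 16.7 CPM at most. In the leukocyte list *Cd14* held 147999 counts and *Lyz2* 48558. The sums are therefore not a measure of how many cells of a type were present. Fibroblast sums were 321 and 36042 against 414 to 1416 CPM (0 of 10, 4) and acinar sums 4.88 and 313 against 8.72 to 16.9 CPM (0 of 3, 2), the higher value labelled off being the paired-end library in both. Their part in the result was not tested. Within the liver libraries of day 7 with *mt-Co3* counts (1 against 1) the difference was -2.41 on the log2(CPM + 0.5) scale, and within those without (2 on against 1 off) it was -1.90.

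On day 14 *Vegfc* in the liver was at 46.9, 18.1 and 8.42 CPM labelled off and at 12.3, 9.62 and 12.4 CPM labelled on. The groups overlapped, 1 library labelled off being the lowest of the 6, and the fold change was -1.16 ± 0.60 (edgeR adjusted p = 0.592). Within libraries with *mt-Co3* counts the difference had the other sign (0.54, 1 against 1), and within those without it was -1.38 (2 against 2). In the lungs, *Vegfc* stood at 31.4 to 36.7 CPM in all 6 libraries of day 7 and did not differ between labels beyond its spread (0.04 ± 0.16, edgeR adjusted p = 0.998). On day 14 it ranged over 29.5 to 42.3 CPM labelled off and 14.9 to 34.5 CPM labelled on (-0.50 ± 0.25, 0.566).

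In the pancreas, *Vegfc* was at 38.5, 39.4 and 40.9 CPM against 41.4 and 38.0 CPM on day 7, a difference of 0.02 ± 0.10 (edgeR adjusted p = 0.950). On day 14 the values were 39.2 and 42.9 CPM labelled off and 30.7, 32.5 and 31.9 CPM labelled on. These groups did not overlap, and the difference of -0.35 ± 0.10 passed the adjusted threshold (edgeR adjusted p = 0.0483) but was under 2-fold, so it was not called.

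*Adamts3* (ENSMUSG00000043635), the protease that cleaves pro-VEGF-C, had 82 counts over all 35 libraries. It was at 0 counts in 7 libraries, at or under 3 counts in 27 and at 8 counts at most, in 1 pancreas library of day 14 labelled on (0.612 CPM). It passed the count filter in no comparison, and no difference was detectable at this depth. Its relatives *Adamts2* (median 20.1 CPM, 2.80 to 223 CPM) and *Adamts14* (median 6.51 CPM, 0.845 to 67.8 CPM) were measured at higher levels, as was *Furin*, which also cleaves VEGF-C precursors (median 232 CPM).

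*Vegfa* (ENSMUSG00000023951, chromosome 17, 46016993 to 46032369, minus strand), the main angiogenic ligand, ranged from 155 to 678 CPM. In the pancreas on day 7 it was at 282, 236 and 257 CPM labelled off and at 272 and 367 CPM labelled on (0.32 ± 0.16, log2 and SE, edgeR adjusted p = 0.290). On day 14 it was at 431 and 474 CPM labelled off and at 368, 332 and 316 CPM labelled on. The day 14 groups did not overlap, and the difference of -0.40 ± 0.10 (edgeR adjusted p = 0.0344) was under 2-fold. The fold changes were thus of opposite sign on the 2 days, and whether they differ between days was not tested.

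In the liver, *Vegfa* was at 374 and 293 CPM against 294, 243 and 218 CPM on day 7 (-0.49 ± 0.23, edgeR adjusted p = 0.257) and at 678, 349 and 194 CPM against 393, 313 and 155 CPM on day 14 (-0.56 ± 0.53, 0.795). In the lungs, it spanned 274 to 417 CPM labelled off and 363 and 506 CPM labelled on on day 7 (0.33 ± 0.29, 0.998), and 334 to 511 CPM against 295 to 407 CPM on day 14 (-0.31 ± 0.18, 0.644). All of these groups overlapped. No organ comparison of *Vegfa* was called, its largest being liver against lung labelled on at -0.51 ± 0.23 (edgeR adjusted p = 0.112).

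*Vegfb* (ENSMUSG00000024962) was the steadiest of the 10 in level, at 19.2 to 36.3 CPM over all 35 libraries with a median of 28.0 CPM. Its 6 label fold changes lay between -0.26 and 0.03, the lowest edgeR adjusted p being 0.379, and its organ differences between -0.29 and 0.14, with adjusted p of 0.0506 or more. For a gene at this level, the SE of a label difference was 0.11 to 0.25 on the log2 scale.

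*Pgf* (ENSMUSG00000004791, chromosome 12, 85166635 to 85177790, minus strand), a ligand of VEGFR1, fell with the label in the pancreas on day 14. It was at 22.7 and 30.4 CPM labelled off and at 7.42, 6.73 and 5.28 CPM labelled on. The groups did not overlap, and *Pgf* was 4.03-fold lower in those labelled on (-2.01 ± 0.19, edgeR adjusted p = 0.00121), a call kept without each of the 5 libraries in turn but lost in 1 fit of all 12 groups (-2.03, edgeR adjusted p = 0.461). On day 7 the pancreas values overlapped, at 7.64, 5.38 and 6.52 CPM against 4.59 and 6.05 CPM (-0.28 ± 0.26, 0.562).

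In the liver on day 7, *Pgf* was at 20.3 and 10.6 CPM labelled off and at 4.33, 2.71 and 3.15 CPM labelled on. These groups did not overlap, and the difference of -2.27 ± 0.42 missed the threshold (edgeR adjusted p = 0.0646). It passed without liver replicate 1 (-1.66, 0.0371) or the paired-end replicate 2 (-2.68, 0.0290) labelled off, and in DESeq2 (adjusted p = 2.8e-05), where 17.8% of all genes tested were called. On day 14 the liver values were 86.8, 8.78 and 2.77 CPM against 1.33, 6.06 and 1.22 CPM, a spread within the group labelled off that left -3.58 ± 1.38 (edgeR adjusted p = 0.471). In the lungs, *Pgf* was at 3.90 to 16.9 CPM against 4.38 and 6.37 CPM on day 7 (-0.40 ± 0.71, 0.998). On day 14 it was at 5.33 to 19.2 CPM against 2.77 to 4.63 CPM, without overlap (-1.48 ± 0.43, 0.278).

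**Figure D3:**
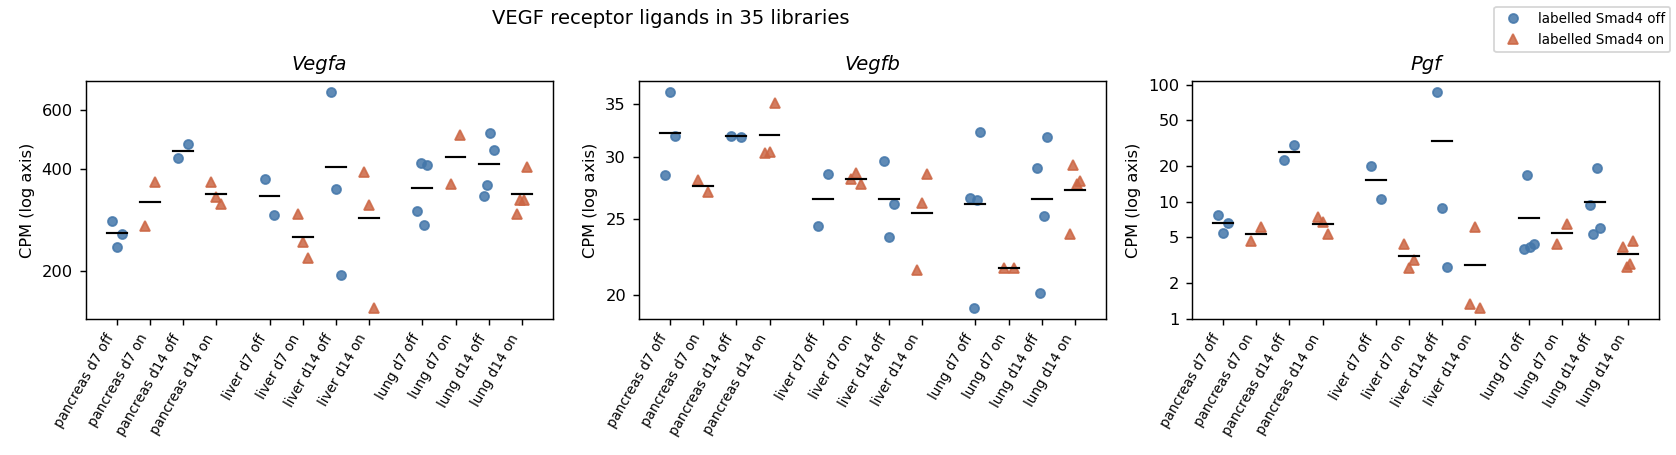
*Vegfa*, *Vegfb* and *Pgf* in each of 35 libraries (y axis, CPM, log scale, with its own range per panel) by organ, day and label (x axis), with circles for libraries labelled off, triangles for labelled on and bars at group means. *Vegfa* and *Vegfb* overlap between labels in most groups, and *Pgf* in the pancreas on day 14 is at 22.7 and 30.4 CPM labelled off and at 5.28 to 7.42 CPM labelled on.

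*Angpt1* (ENSMUSG00000022309, chromosome 15, 42424723 to 42676977, minus strand), the activating Tie2 ligand, differed by organ. It was at 5.85 to 17.9 CPM in the 10 pancreas libraries and at 0.371 to 1.64 CPM in the 14 lung libraries. In the liver it was at 8.22 CPM in the paired-end library and at 0.0456 to 2.82 CPM in the other 10. The paired-end library was the 1 liver library within the range of the pancreas. *Angpt1* was 20.0-fold lower in the lungs than in the pancreas among libraries labelled off (-4.32 ± 0.62, edgeR adjusted p = 8.4e-06) and 11.3-fold lower among those labelled on (-3.49 ± 0.74, 0.00109). Against the pancreas the liver was at -2.76 ± 0.71 labelled off (edgeR adjusted p = 0.00886) and at -5.80 ± 0.76 labelled on (1.57e-06), and the first of these was -5.92 without the paired-end library.

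Liver against lung, *Angpt1* was 1.56 ± 0.61 among libraries labelled off (edgeR adjusted p = 0.113), and this difference turned to -1.60 without the paired-end library and was called without liver replicate 1 of day 7 labelled off (2.04, 0.00523). Among those labelled on it was -2.30 ± 0.73 (0.0255), a call lost without liver replicate 3 or lung replicate 1 of day 7 or liver replicate 2 or lung replicate 4 of day 14 (adjusted p = 0.0509 to 0.177, fold changes -2.22 to -1.76). In the liver libraries labelled on, *Angpt1* was at 0.0718 to 0.264 CPM, which is close to the floor, so these folds carry large errors. The same organs differed in fibroblast and acinar markers: all 10 fibroblast markers were above 3 counts in every group, their sum was 9148 CPM or more in the pancreas and 4310 CPM or less in the other liver and lung libraries, and the acinar sum was 619 to 2769 CPM in the pancreas and 2.94 to 13.2 CPM in the lungs. Among acinar genes, *Amy2a1* had only 5 counts over all libraries. It was at 0 in all lung and liver groups and in the pancreas of day 14 labelled on. Pericyte and smooth muscle markers summed to 95.0 to 252 CPM in the pancreas, 10.4 to 47.2 CPM in the lungs and 14.3 to 257 CPM in the other 10 liver libraries. Endothelial sums were 24.8 to 41.9, 50.6 to 113 and 10.0 to 74.4 CPM in that order. The part of these markers in the organ difference of *Angpt1* was not tested.

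**Figure D4:**
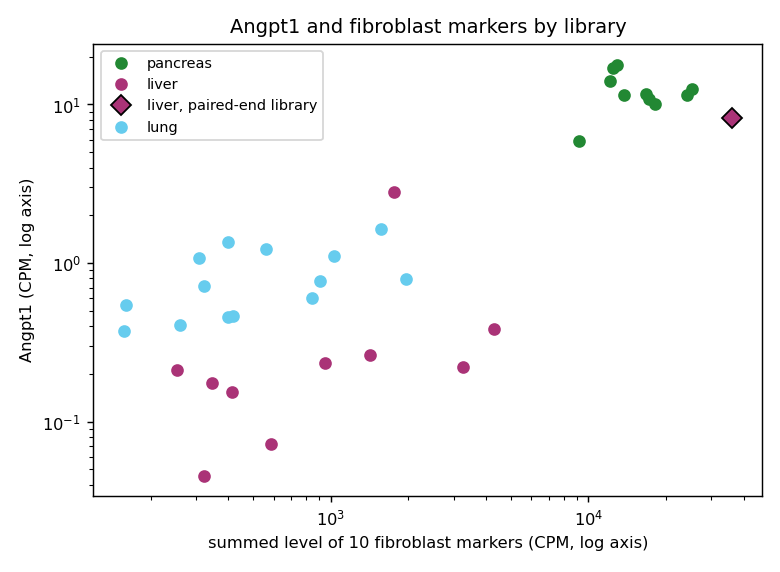
*Angpt1* level (y axis, CPM, log scale) against the summed level of 10 fibroblast markers (x axis, CPM, log scale) in each of 35 libraries, colored by organ, with a diamond for the paired-end liver library. Pancreas libraries lie at the upper right with *Angpt1* at 5.85 to 17.9 CPM, the paired-end library lies beside them at 8.22 CPM, and lung libraries stay at 1.64 CPM or less.

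Between labels, *Angpt1* was tested in the pancreas and lungs, where no difference was called. The pancreas of day 14 held 17.9 and 14.2 CPM labelled off and 5.85, 11.6 and 10.1 CPM labelled on, without overlap (-0.78 ± 0.27, edgeR adjusted p = 0.114). It passed the count filter in neither liver comparison. In 1 fit of all 12 groups it was called in the liver on day 7 (-4.19, edgeR adjusted p = 0.00397), where the libraries labelled off were at 0.0456 CPM and, in the paired-end library, 8.22 CPM. *Angpt2* (ENSMUSG00000031465), the Tie2 antagonist, was low throughout, at 0.780 to 6.11 CPM, and its 6 label differences lay between -0.50 and 1.01 with edgeR adjusted p of 0.418 or more. It was highest in the liver on day 7 labelled on (2.03, 3.5 and 6.11 CPM), where the other label held 0.981 and 2.68 CPM and the groups overlapped. *Angpt2* in the lungs labelled off was lower than in the pancreas by less than 2-fold (-0.83 ± 0.32, edgeR adjusted p = 0.0431), and the difference was called without lung replicate 1 of day 14 labelled off (-1.05, 0.00960).

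*Angptl2* (ENSMUSG00000004105, chromosome 2, 33216069 to 33247717, plus strand), the proangiogenic angiopoietin-like factor, fell with the label in the pancreas on both days. On day 7 it was at 343, 395 and 357 CPM labelled off and at 155 and 178 CPM labelled on. On day 14 it was at 362 and 312 CPM against 142, 140 and 135 CPM. The groups were apart on both days, with *Angptl2* 2.18-fold lower on day 7 (-1.12 ± 0.12, edgeR adjusted p = 0.0160) and 2.39-fold lower on day 14 (-1.25 ± 0.09, 0.000384). The day 7 call was lost without replicate 3 labelled off or either replicate labelled on (adjusted p = 0.0568 to 0.124, fold changes -1.23 to -1.03), and the day 14 call was kept without each library in turn. The share of all genes called lower was 0.374% on day 7 (14439 genes) and 1.26% on day 14 (14234 genes). With 1 fit of all 12 groups both calls were lost, at the same size (-1.13 and -1.28, edgeR adjusted p = 0.323 and 0.309), in a fit that called 0.239% and 0.0912% of all genes in these comparisons.

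In the liver on day 7, *Angptl2* was at 210 and 318 CPM labelled off and at 26.6, 23.2 and 11.4 CPM labelled on. The groups were 13.6-fold apart (-3.76 ± 0.43), just outside the threshold (edgeR adjusted p = 0.0527). The difference was called without replicate 1 labelled off (-3.98, 0.00569) and without the paired-end replicate 2 (-3.46, 0.0288), and in DESeq2 (adjusted p = 1.18e-13). On day 14 it was at 258, 128 and 96.5 CPM against 31.1, 54.9 and 35.8 CPM, again without overlap (-2.04 ± 0.44, edgeR adjusted p = 0.357). In 1 fit of all 12 groups *Angptl2* was called in the liver on both days (-3.69, edgeR adjusted p = 8.87e-06, and -1.99, 0.0153), as was *Pgf* on day 14 (-3.51, 0.0298). In the lungs on day 7 the labels overlapped, at 72.8 to 168 CPM against 60.3 and 172 CPM (0.13 ± 0.48, 0.998). The difference there was 1.24 on the log2(CPM + 0.5) scale among libraries with *mt-Co3* counts (1 against 1) and -0.96 among those without (1 on against 3 off). On day 14 the lungs held 120 to 216 CPM against 50.7 to 131 CPM (-0.89 ± 0.31, edgeR adjusted p = 0.369).

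*Angptl4* (ENSMUSG00000002289, chromosome 17, 33773750 to 33781575, minus strand), the lipoprotein lipase inhibitor, was the 1 gene of the 10 that rose with the label. In the pancreas on day 14 it was at 84.7 and 68.8 CPM labelled off and at 176, 178 and 187 CPM labelled on. It was 2.39-fold higher in those labelled on (1.26 ± 0.10, edgeR adjusted p = 0.000849), a call kept without each library in turn, where 3.39% of 14234 genes were called higher. It too was lost in 1 fit of all 12 groups (1.23, edgeR adjusted p = 0.409). On day 7 the pancreas values were 62.5, 122 and 75.9 CPM against 239 and 217 CPM, without overlap (1.41 ± 0.28, 0.0656). This difference was called without replicate 2 labelled off (1.73, edgeR adjusted p = 0.00705).

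In the lungs on day 14, *Angptl4* was at 51.9 to 98.9 CPM labelled off and at 107 to 171 CPM labelled on, without overlap (0.91 ± 0.24, edgeR adjusted p = 0.250). On day 7 it was at 58.1 to 105 CPM against 92.3 and 225 CPM (1.01 ± 0.40, 0.956). In the liver the fold changes had the other sign, -0.56 ± 0.31 on day 7 (0.313) and -0.86 ± 0.61 on day 14 (0.713), with overlapping groups on both days. Whether the liver differed from the other organs was tested as a difference of responses, described below.

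**Figure D5:**
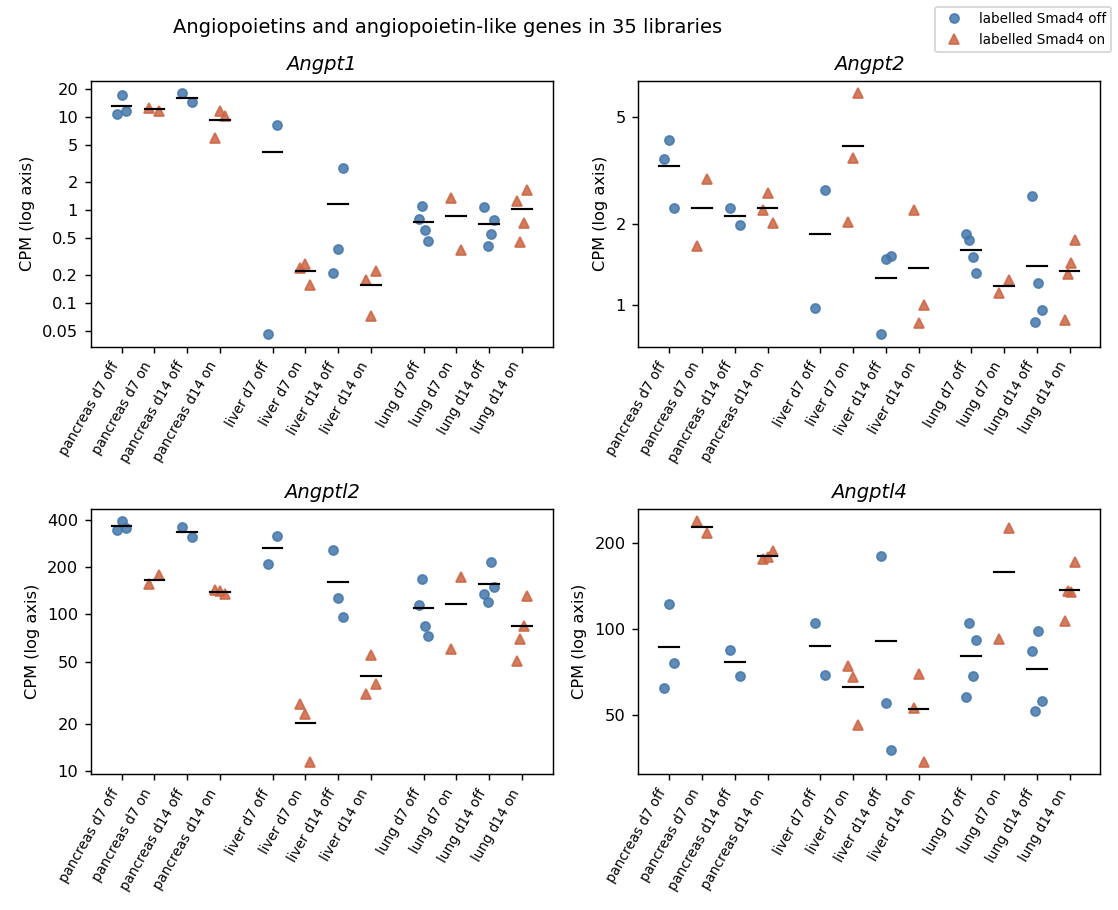
*Angpt1*, *Angpt2*, *Angptl2* and *Angptl4* in each of 35 libraries (y axis, CPM, log scale, with its own range per panel) by organ, day and label (x axis), with circles for libraries labelled off, triangles for labelled on and bars at group means. *Angpt1* separates the pancreas from the lungs, *Angptl2* is lower in pancreas libraries labelled on (135 to 178 CPM) than labelled off (312 to 395 CPM), and *Angptl4* is higher in pancreas libraries labelled on (176 to 239 CPM) than labelled off (62.5 to 122 CPM).

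Markers of other cell types were also called between labels in the pancreas. On day 7, 3 of 10 fibroblast markers rose (*Col3a1* by 1.15, *Mfap5* by 1.28 and *Pdgfra* by 2.93 on the log2 scale), with sums of 12396 to 17134 CPM labelled off and 24206 to 25173 CPM labelled on, and 2 of 6 acinar markers fell, *Ctrb1* by 1.83 and *Prss2* by 1.86, with sums of 1715 to 2738 CPM against 619 to 836 CPM. On day 14, *Col1a2* rose by 1.58, but the fibroblast sums overlapped, at 12152 to 12928 CPM against 9148 to 18117 CPM, as did the acinar sums, at 795 to 2769 CPM against 1356 to 1754 CPM. The other marker calls on day 7 were rises of *Notch3* (1.19, pericyte list) and *Sftpd* (1.51, lung epithelial list), on the log2 scale. On day 14 they were a rise of *Ttr* (2.38, hepatocyte list) and a fall of *Mcam* (-1.14, pericyte list). Each was the 1 call of its list, so none shows a shift of a cell type. The 5 pericyte markers tested on day 7 had a median of -0.59. Of the lung epithelial list 2 were tested, and *Sftpa1*, *Sftpb* and *Sftpc* were at 0 in the day 7 libraries labelled on. Of the hepatocyte list 2 were tested on day 14, with *Fgb* at 0 labelled on. On day 14 the pericyte sums were 174 to 204 CPM labelled off and 95.0 to 104 CPM labelled on. *Mcam* alone had means of 154 CPM labelled off and 68.6 CPM labelled on, and the 5 pericyte markers tested had a median difference of -0.14 (log2). The leukocyte sums were 161 to 245 against 269 to 290 CPM and the ductal sums 4327 to 4726 against 5542 to 7890 CPM. The part of all these markers in the changes of *Angptl2*, *Angptl4* and *Pgf* was not tested. Endothelial and lymphatic endothelial markers had no call in any comparison by edgeR's test, which called 0.0% to 4.64% of all genes by comparison. In the pancreas on day 7, 4 of 9 endothelial markers tested had an unadjusted edgeR p under 0.05, with a median difference of -1.09 (log2). The endothelial sums overlapped there, at 32.3 to 41.9 CPM labelled off and 29.5 to 41.8 CPM labelled on. On day 14 the number was 0 of 10. Over all libraries the endothelial and lymphatic endothelial sums were 10.0 to 113 CPM and 1.00 to 25.5 CPM. *Prox1*, 1 gene of the lymphatic endothelial list, was at 0.0900 to 2.22 CPM.

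The label responses were then compared between organs, in fits that joined the libraries of 2 organs on 1 day. On day 7, *Vegfc* responded differently in the liver and the lungs (liver minus lung -2.22 ± 0.24, log2 and SE, edgeR adjusted p = 0.0233) and in the liver and the pancreas (-2.16 ± 0.22, 0.0244). *Angptl2* did so as well, at -3.82 ± 0.68 (0.0377) and -2.56 ± 0.45 (0.0493). These comparisons share the liver libraries. The calls were not stable: leaving out 1 library ended that of *Vegfc* in 7 of 11 fits against the lungs and 6 of 10 against the pancreas and that of *Angptl2* in 8 of 11 and 8 of 10. With mouse number as a replicate block 0 of the 4 remained. Those fits also left out every library whose number had no partner in the other label, so the block and the smaller groups cannot be told apart. Of all genes, 1.86% were called against the lungs (0.984% lower and 0.88% higher) and 0.814% against the pancreas (0.459% lower and 0.355% higher). Between the lungs and the pancreas, edgeR called 0 of the 8 members tested other than *Ccbe1*. It also called 0 of all 15944 genes, so this count is not particular to the members. An unadjusted edgeR p under 0.05 was found for 0 of the 8 and for 1672 of all genes. DESeq2 called 0 of the 8, where 1.2% of all genes were called.

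Of the other genes, *Angptl4* had liver-minus-pancreas and liver-minus-lung differences of -1.88 ± 0.44 (edgeR adjusted p = 0.0831) and -1.51 ± 0.55 (0.153) on day 7, and *Pgf* had -1.90 ± 0.49 (0.0955) and -1.81 ± 0.89 (0.286). Without 1 library some of these were called. For *Angptl4* these were liver replicate 1 labelled off (against the pancreas, -1.54, edgeR adjusted p = 0.0421) and lung replicate 1 labelled on (against the lungs, -2.08, 0.0436), and for *Pgf* it was the paired-end library (against the pancreas, -2.29, 0.0487). The differences of *Ccbe1*, given as a description, were -3.11 ± 0.73 against the pancreas and -1.55 ± 1.01 against the lungs on day 7, and -4.23 ± 0.92 and -2.26 ± 0.93 on day 14. On day 14 no response difference was called by edgeR for any gene. Of the 8 other members tested, 2 had an unadjusted p under 0.05 for liver minus lung, 1 for liver minus pancreas and 0 for lung minus pancreas. Among all genes these were 478 of 15869, 701 of 16938 and 1179 of 16472. DESeq2 called 0 of the 8 in each, where it called 0.0252%, 0.236% and 0.674% of all genes, so this lack of calls is not particular to the members.

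Levels were also compared between organs within each label, over the mean of both days. Of 48 tests of the members other than *Ccbe1* 12 were called, all with the level lower in the first-named organ. The organs also differed in marker sums over both labels. Ductal tumor cell markers summed to 2602 to 7890 CPM in the pancreas, 6169 to 14442 CPM in the lungs and 12312 to 17692 CPM in the liver without the paired-end library. Fibroblast markers summed to 9148 to 25173, 158 to 1966 and 253 to 4310 CPM in that order. Their part in the organ differences of either label was not tested. Among libraries labelled on, 4 of these 8 genes were lower in the liver than in the pancreas (*Angpt1*, *Angptl2*, *Angptl4* and *Vegfc*), where 22.6% of 17547 genes were called and 11.3% were called lower. *Angptl2* was at -2.40 ± 0.30 there (log2 and SE, edgeR adjusted p = 8.7e-07), *Vegfc* at -1.83 ± 0.25 (2.73e-06) and *Angptl4* at -1.82 ± 0.31 (4.27e-05), and none of these 4 calls was lost without any 1 library. *Angpt1*, *Angptl2*, *Angptl4* and *Vegfc* were also lower in the liver than in the lungs (10.9% of genes called, 5.21% lower and 5.72% higher), with *Vegfc* at -1.50 ± 0.25 (edgeR adjusted p = 0.000115), *Angptl2* at -1.78 ± 0.29 (0.00012) and *Angptl4* at -1.36 ± 0.30 (0.00206). The *Angptl4* call was lost without lung replicate 2 of day 7 labelled on, when the difference was just under 2-fold (edgeR adjusted p = 0.0433).

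Among libraries labelled off, fewer organ differences were called. *Angpt1* was lower in the liver and in the lungs than in the pancreas (9.52% of genes called for the liver, 3.97% lower and 5.56% higher, and 19.0% for the lungs, 7.32% lower and 11.7% higher), and *Angptl2* was lower in the lungs than in the pancreas (-1.43 ± 0.27, edgeR adjusted p = 0.000193). Among the 8 genes for liver against lung, where 5.28% of all genes were called (2.15% higher and 3.13% lower), 0 were called by edgeR or DESeq2, and 3 had an unadjusted p under 0.05 in edgeR: *Angpt1*, *Pgf* (1.40 ± 0.53) and *Angptl2* (0.66 ± 0.27). *Pgf* was called there without liver replicate 3 of day 14 (1.67, edgeR adjusted p = 0.0215) or lung replicate 2 of day 7 (1.82, 0.0322) labelled off. Against the pancreas, *Angptl2* in the liver labelled off was called without liver replicate 1 of day 14 (-1.04, edgeR adjusted p = 0.0211) and *Angpt2* without the paired-end library (-1.25, 0.0273). *Vegfc* did not differ detectably between organs labelled off, with differences of -0.39 ± 0.26, -0.28 ± 0.23 and -0.11 ± 0.23 (edgeR adjusted p = 0.316, 0.372 and 0.842). For lung against pancreas labelled on, *Angpt1* was lower (13.7% of genes called, 7.39% lower and 6.32% higher), and *Angptl2* was called as well without lung replicate 2 of day 7 labelled on (-1.10, edgeR adjusted p = 0.0230).

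Between the days, 0 of 27 tests of these genes were called by edgeR (1 had an unadjusted p under 0.05, *Angpt2* in the liver at -1.01 ± 0.34) and 0 by DESeq2. No gene of the 17547 was called by edgeR in any organ, with 1122 to 2002 under an unadjusted p of 0.05, and DESeq2 called 0.0456% to 0.41%. *Angpt2* in the liver was called without replicate 1 of day 7 labelled off (-1.26, edgeR adjusted p = 0.0312). The differences farthest from 0 were *Angpt1* in the liver, at -1.20 ± 0.72 (edgeR adjusted p = 0.671) and of the other sign without the paired-end library, and *Pgf* in the pancreas, at 1.15 ± 0.62 (0.505).

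Genes of the same pathways were counted from 8 lists of 73 names, 71 of them in the table. Of 403 tests in the label comparisons 3 were called higher and 3 lower, 5 of the 6 in the pancreas on day 14, where 4.64% of all genes were called. There *Vegfd*, the closest relative of *Vegfc*, rose from 12.5 ± 1.42 CPM (SD, n = 2) to 25.7 ± 6.04 CPM (n = 3; 1.06 ± 0.21, log2 and SE, edgeR adjusted p = 0.0166). *Col4a3*, which encodes a collagen chain with an antiangiogenic fragment, rose as well (2.27 ± 0.49, 0.0216). The protease gene *Adamts14* fell, from 42.2 to 17.6 CPM (-1.24 ± 0.22, edgeR adjusted p = 0.0165), as did *Apln*, which encodes the vascular peptide apelin (-1.47 ± 0.27, 0.0122), and the hyaluronan synthase gene *Has2* (-1.13 ± 0.18, 0.00699). *Has2* belongs to a list of SMAD-dependent genes of which several were named by the study from these samples, so its fall is not independent evidence of the list's direction.

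In the liver on day 7, *Epas1*, which encodes the hypoxia-inducible factor HIF2α, rose from 12.6 ± 3.32 CPM (n = 2) to 83.4 ± 17.2 CPM (n = 3; 2.63 ± 0.29, log2 and SE, edgeR adjusted p = 0.048). The other 12 hypoxia genes had no call, in a comparison where edgeR called 0.444% of all genes. Of all 13 hypoxia genes 7 had an unadjusted edgeR p under 0.05. There the 69 pathway genes tested had a median difference of -1.14, beside -0.06 for all genes and -1.39 for the 8 members tested. In the pancreas on day 14 the medians were -0.29, 0.02 and -0.35. The members here include *Ccbe1*, which was selected on its label contrast. The pathway genes include the list of SMAD-dependent genes, several of them named by the study from these samples (median -2.77 in the liver on day 7). These medians are therefore a description, with no test. Receptors had no call in 41 edgeR tests, where edgeR called 0.0% to 4.64% of all genes by comparison, so this count is not particular to them. In each comparison 1 to 3 of them had an unadjusted edgeR p under 0.05. In the liver on day 7 these were *Flt1* (-1.73 ± 0.31, log2 and SE), *Nrp2* (-2.28 ± 0.48) and *Tek* (2.15 ± 0.70), beside 4340 of all 16007 genes. *Tek* was at 0.730 CPM at most in the liver. The VEGFR1 gene *Flt1* was at 48.0 to 461 CPM and the coreceptor genes *Nrp1* and *Nrp2* at 41.3 to 400 CPM and 22.3 to 367 CPM, whereas *Kdr* (VEGFR2), *Flt4* (VEGFR3) and *Tek* (Tie2) stayed at or under 5.31, 15.3 and 4.29 CPM. The 6 PPAR target genes had no call in 35 edgeR tests, beside the same shares over all genes. In each comparison 0 to 3 of them had an unadjusted edgeR p under 0.05.

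Finally, the genes whose pattern was most like that of 3 members were listed by Pearson's r of log2(CPM + 0.5) over all 35 libraries, among 17546 other genes. These libraries share organ, day and label, so r is a description of a common pattern. For *Ccbe1* they were *Piezo2* (r = 0.915, Spearman's rho = 0.808), *Itga5* (0.893, 0.850) and *Ttc39c* (0.875, 0.780). *Smad4* itself had r = 0.776 with *Ccbe1*. For *Vegfc* they were *Spred3* (0.921, 0.780), *Frmd4a* (0.915, 0.801) and *Plekho2* (0.912, 0.763), and r with *Smad4* was 0.509. For *Vegfa* they were *Dusp10* (0.833, 0.748), *Hilpda* (0.822, 0.821) and *Padi2* (0.810, 0.735), and r with *Smad4* was 0.263. After the group means were subtracted, r was 0.721 for *Ccbe1* with *Piezo2*, 0.655 for *Vegfc* with *Spred3* and 0.828 for *Vegfa* with *Dusp10*. Without the 2 libraries farthest from the median of the member, r was 0.888, 0.919 and 0.747 for the same pairs.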

How the data were processed

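RNA was polyA-selected from sorted tumor cells and sequenced as 75-base reads. Per the labels and processing notes, the authors trimmed reads with Trimmomatic 0.36, aligned them to GRCm38 with STAR 2.5.3a and counted them per gene with featureCounts 1.6.3. The deposited values are raw counts of 53465 genes in 35 libraries, matched to the labels by column name, with 0 identical libraries. Strand use in the counting was not given in the sources used here. The 10 members, lists and tests were chosen with earlier results of these data known. Members in every comparison, called pathway genes (up to 3 a list) and the 3 genes most like 3 members were named.

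Low genes were removed with filterByExpr (at least 10 counts in the smallest group's worth of libraries and 15 in total), libraries were scaled by TMM, and genes were tested by robust quasi-likelihood fits in edgeR 4.0.16 (R 4.3.3) with Benjamini-Hochberg adjustment over all genes. Label comparisons used 1 organ and day, response differences the libraries of 2 organs on 1 day, and organ and day contrasts 1 fit of 12 groups. An SE is the size of the log2 fold change over the square root of F. Alternatives were DESeq2 1.42.0 and its size factors, other filters, the mouse number as a block, 1 fit of 12 groups, no fold threshold, a term marking the 10 liver and lung libraries that have any *mt-Co3* count and leaving out each library. In label and response fits with the block, only libraries whose number occurred under both labels of their organ were kept. Deviations of same-numbered libraries from their group means correlated at r = 0.465 to 0.588 in the 4 pairs of the lungs on day 14. They correlated at 0.0835 to 0.538 in the liver and 0.0443 to 0.0553 in the pancreas on day 14, and at -0.309 to 0.369 on day 7. In the lungs on day 14 some libraries of different number correlated as highly. These were 0.628 (number 1 labelled on with 2 labelled off), 0.584 (2 with 1) and 0.589 (4 with 3). There, numbers 1 and 2 had no *mt-Co3* counts and 3 and 4 had them, so the correlations do not show pairing by number. The labels do not state that a number marks a litter or a day, and the block changed no call of a member in the lungs on day 14. Each library is 1 mouse by its label, so P values measure spread between these libraries. Tests were checked on simulated counts. A further allele of these mice is not reported here. Python 3.11.15 with matplotlib 3.10.9 drew the figures.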

Additional observations from a re-analysis of the deposited data

Results flagged for a closer look

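Of 30 gene-by-group sets of 4 libraries, 2 held a library far from the other 3, and chance gives about 1 in 20. *Vegfc* in the lungs on day 14 labelled off was at 42.3 CPM in replicate 4 and at 29.5 to 30.3 CPM in the others. *Pgf* in the lungs on day 7 labelled off was at 16.9 CPM in replicate 2 and at 3.9 to 4.3 CPM in the others.

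On day 7 the label response of *Vegfc* differed between the liver and the lungs (-2.22 on the log2 scale) and between the liver and the pancreas (-2.16). By edgeR, the first call was lost without any 1 of the 3 liver libraries labelled on, of lung replicates 1, 2 and 3 labelled off or lung replicate 2 labelled on, at -2.40 to -2.11 and adjusted p of 0.0643 to 0.112. The second was lost without any 1 of the 5 pancreas libraries or liver replicate 2 labelled on, at -2.28 to -2.13 and adjusted p of 0.0741 to 0.183. The response of *Angptl2* also differed, by -3.82 against the lungs and -2.56 against the pancreas. The first call was lost without the paired-end liver library, any 1 of the 3 liver libraries labelled on, lung replicates 1, 2 and 3 labelled off or lung replicate 2 labelled on, at -4.15 to -2.83 and adjusted p of 0.0643 to 0.134. The second was lost without any 1 of the 5 pancreas libraries, the paired-end liver library or liver replicates 1 and 2 labelled on, at -2.85 to -2.23 and adjusted p of 0.0601 to 0.204. The direction was the same in all of these fits.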

How the results depend on the processing

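The counts of calls here include *Ccbe1*, which was selected on its label contrast, so its calls are no support. Without it the label comparisons had 5 calls by edgeR and 10 by DESeq2. The organ comparisons then had 12 and 12, and the response differences 4 and 6. Of the label comparisons 5 tests were called. DESeq2 called 13, the term for *mt-Co3* libraries 8, no count filter 8, leaving out the paired-end library 8, and 1 fit of 12 groups 7, of which only *Vegfc* in the liver on day 7 was among the 5. The organ comparisons had 14 calls, 2 of them of *Ccbe1*, and 9 with at least 10 counts in every library. The day comparisons had 0. The response differences had 4 calls, 8 in DESeq2 and 7 with the *mt-Co3* term. Without 1 library at a time the calls were 4 to 9, 13 to 16, 0 to 1 and 0 to 8 in that order.

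Pairing by mouse number was tried as a replicate block, which left 3 label calls (the 3 of the pancreas on day 14) and 0 response calls. These fits left out libraries whose number had no partner in the other label, so a lost call cannot be put down to the block alone. The correlations of same-numbered pairs were 0.465 to 0.588 in the lungs on day 14, where a pair of different number reached 0.628. Elsewhere they were -0.309 to 0.538.

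Differences reversed for 2 genes. Without 1 library, *Angpt1* ranged from -1.60 to 2.04 for liver against lung labelled off, from -2.15 to 1.95 for liver day 14 against 7, and from -5.36 to 1.88 and -5.06 to 2.27 for its liver response of day 7 against lung and pancreas, each reversal being that without the paired-end library. *Pgf* ranged from -3.27 to 0.45 and from -2.72 to 1.05 for its liver response of day 14 against lung and pancreas, reversed without liver replicate 1 labelled off. The cause was not tested.

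Over all genes, edgeR, DESeq2 and 1 fit of 12 groups called these numbers on day 7: pancreas 192, 517 and 42, liver 71, 2842 and 3097, lung 0, 100 and 16. On day 14 they called 661, 832 and 16 (pancreas), 0, 332 and 254 (liver), then 4, 197 and 14 (lung). For the day 7 responses they called 305, 1879 and 2037 (liver minus lung), 133, 1460 and 891 (liver minus pancreas) and 0, 191 and 2 (lung minus pancreas), and DESeq2 called 4, 40 and 111 on day 14 where both edgeR fits called 0. Between days DESeq2 called 22, 72 and 8 in pancreas, liver and lung, and edgeR 0. *Adamts3* was too low to be tested between labels.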
